A study of Mus musculus with 6 samples.

Results

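The 43 genes described here copy DNA or divide the cell, and were taken as a named list from the 34745 genes of the deposited table, of which 18844 were above 0 in at least 1 library. The list was read as 15 S phase genes, 22 mitotic genes, 3 genes of broader use (Hmgb2, Stmn1 and Tubb5) and the 3 D-type cyclins. All 43 were found by symbol, and each was above 0 in at least 1 library. RNA came from isolated islets of C57BL/6 mice aged 8 weeks, in 3 groups of 2 libraries. The first group, KO+DNMT3A, was Beta RapKO with Dnmt3a expression (βRapKO+LvDnmt3a in the design text). The second, KO, was Beta RapKO without it, and the third was WT. βRapKO mice are known for loss of Raptor, the defining subunit of the kinase complex mTORC1, from beta cells. The labels do not name the promoter that drove the deletion, how Dnmt3a was delivered beyond the prefix Lv, or whether the 2 libraries of each group are different mice. P-values therefore rest on the differences among these 6 libraries alone, and those may be technical. WT and KO columns of the deposited table are also named with GFP, for which no label gives a reason. Whether restored DNMT3A lets βRapKO beta cells set up a proper transcriptome is the question the series title poses.

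Cells copy their genome once per division. In G1 the proteins Cdc6 and Cdt1 load the Mcm2 to Mcm7 helicase on DNA, and in S phase the Gins complex helps to activate it, Pcna clamps the polymerases, and ribonucleotide reductase, thymidylate synthase and thymidine kinase supply the nucleotides. In mitosis Cdk1 with cyclins A and B drives entry, spindle checkpoint proteins hold division until chromosomes are attached, and the anaphase-promoting complex, with Cdc20 and the ubiquitin carrier Ube2c, then destroys the cyclins. Transcription of the S phase set is known to depend on E2F factors, and that of the mitotic set on DREAM and MuvB complexes, which bind a promoter element called CHR and often act with NF-Y at CCAAT. The D-type cyclins act first, since they pass growth signals to Cdk4 and Cdk6. Adult beta cells divide rarely, so these transcripts are usually scarce in islets, and islets also hold other cells that can divide.

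Both sets differed in the sequence of their promoters. The windows come from RefSeq (GRCm38.p6), run from 250 bases before the start to 50 bases after it, and were found for 13 of the 15 S phase genes and 18 of the 22 mitotic genes. The E2F words searched on both strands were TTTCCCGC, TTTCGCGC, TTTGCCGC and TTTGGCGC, and 6 of the 13 S phase windows (46.2%) held at least 1 of them, as did 1 of the 18 mitotic windows (5.56%) and 2.92% of all 17492 protein-coding genes. The CHR words TTTGAA and TTCGAA stood in 14 of 18 mitotic windows (77.8%), 2 of 13 S phase windows (15.4%) and 18.2% of all genes. The word CCAAT stood in 16 of 18 mitotic windows (88.9%), 8 of 13 S phase windows (61.5%) and 39.0% of all genes. These are matches of letters, not measured binding. The windows below show the contrast, with E2F and CHR words in capitals. Mcm3 and Mcm6 hold E2F words alone, which overlap each other at the first site of Mcm6. Ube2c and Top2a hold CHR words alone, and Cdk1 is the mitotic gene that holds both kinds.
Mcm3, chr1:20820263-20820562, minus strand: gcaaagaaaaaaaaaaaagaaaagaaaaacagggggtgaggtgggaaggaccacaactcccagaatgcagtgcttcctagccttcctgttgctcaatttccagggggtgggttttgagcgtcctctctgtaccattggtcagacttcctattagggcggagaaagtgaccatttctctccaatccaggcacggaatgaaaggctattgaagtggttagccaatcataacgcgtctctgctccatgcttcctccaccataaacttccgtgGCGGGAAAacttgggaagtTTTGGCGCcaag
Mcm6, chr1:128359656-128359955, minus strand: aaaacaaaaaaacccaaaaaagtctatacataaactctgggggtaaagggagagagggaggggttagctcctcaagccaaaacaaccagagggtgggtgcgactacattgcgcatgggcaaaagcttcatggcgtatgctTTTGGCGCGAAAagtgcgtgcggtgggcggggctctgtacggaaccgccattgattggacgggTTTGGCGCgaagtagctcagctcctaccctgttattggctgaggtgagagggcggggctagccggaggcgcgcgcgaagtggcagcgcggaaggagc
Ube2c, chr2:164769679-164769978, plus strand: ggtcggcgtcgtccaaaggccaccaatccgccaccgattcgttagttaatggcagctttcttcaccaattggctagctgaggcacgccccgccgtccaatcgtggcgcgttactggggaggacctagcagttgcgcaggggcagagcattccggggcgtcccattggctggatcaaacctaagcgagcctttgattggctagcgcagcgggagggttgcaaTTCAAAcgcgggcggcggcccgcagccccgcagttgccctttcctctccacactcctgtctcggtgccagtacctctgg
Top2a, chr11:99024140-99024439, minus strand: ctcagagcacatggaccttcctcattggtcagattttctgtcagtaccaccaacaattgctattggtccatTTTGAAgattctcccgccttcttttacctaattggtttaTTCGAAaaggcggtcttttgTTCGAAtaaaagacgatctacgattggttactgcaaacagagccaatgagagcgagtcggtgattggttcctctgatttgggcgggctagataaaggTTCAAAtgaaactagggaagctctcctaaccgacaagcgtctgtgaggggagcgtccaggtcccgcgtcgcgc
Cdk1, chr10:69352863-69353162, minus strand: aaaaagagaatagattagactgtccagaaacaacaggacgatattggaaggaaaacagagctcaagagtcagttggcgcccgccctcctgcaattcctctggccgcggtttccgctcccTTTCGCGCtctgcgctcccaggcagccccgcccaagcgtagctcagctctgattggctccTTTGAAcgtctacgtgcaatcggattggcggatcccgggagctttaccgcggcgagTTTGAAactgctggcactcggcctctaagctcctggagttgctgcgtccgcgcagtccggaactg

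The libraries were shallow, and that sets what a low value means. The deposited unit is FPKM, fragments scaled to gene length and library size. The steps between values imply 1920397 and 1117581 counted fragments in KO+DNMT3A, 1426104 and 780504 in KO, and 244735 and 973699 in WT. Dividing a value by that of 1 count gives the implied counts quoted below. Over all genes they sum to more than the counted fragments, so a fragment may have entered them more than once. For 11 members they rest on the nearest length that made all values whole, and another length could give other counts. The implied counts are thus approximate and carry no interval. A single count on a mitotic gene was worth a median of 0.688 FPKM in WT replicate 1 and 0.088 to 0.216 FPKM in the other 5 libraries. KO replicate 2 and WT replicate 1 had little beta cell RNA: Ins1, Ins2 and Iapp together took 0.24% and 0.26% of the summed FPKM there, and 24.16% to 40.73% in the other 4. Rptor (ENSMUSG00000025583) was 0.71 and 1.93 FPKM under the label KO+DNMT3A, 0.38 and 1.51 FPKM under KO, and 0.8 and 1.06 FPKM under WT. KO replicate 2 and KO+DNMT3A replicate 2 were thus each above both WT libraries. Whole-islet values cannot decide whether the labels hold, since the deletion is of beta cells and KO replicate 2 had little beta cell RNA. All groups are called here by their labels. Dnmt3a (ENSMUSG00000020661) was 3.62 and 3.8 FPKM in KO+DNMT3A islets, 3.19 and 2.5 FPKM in KO islets, and 2.94 and 4.43 FPKM in WT. Both KO+DNMT3A libraries lay above both KO libraries and within the WT range. A gene-level value covers every exon and every islet cell type. In such bulk RNA, fewer dividing cells and less of a transcript per cell cannot be told apart.

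**Figure D1:**
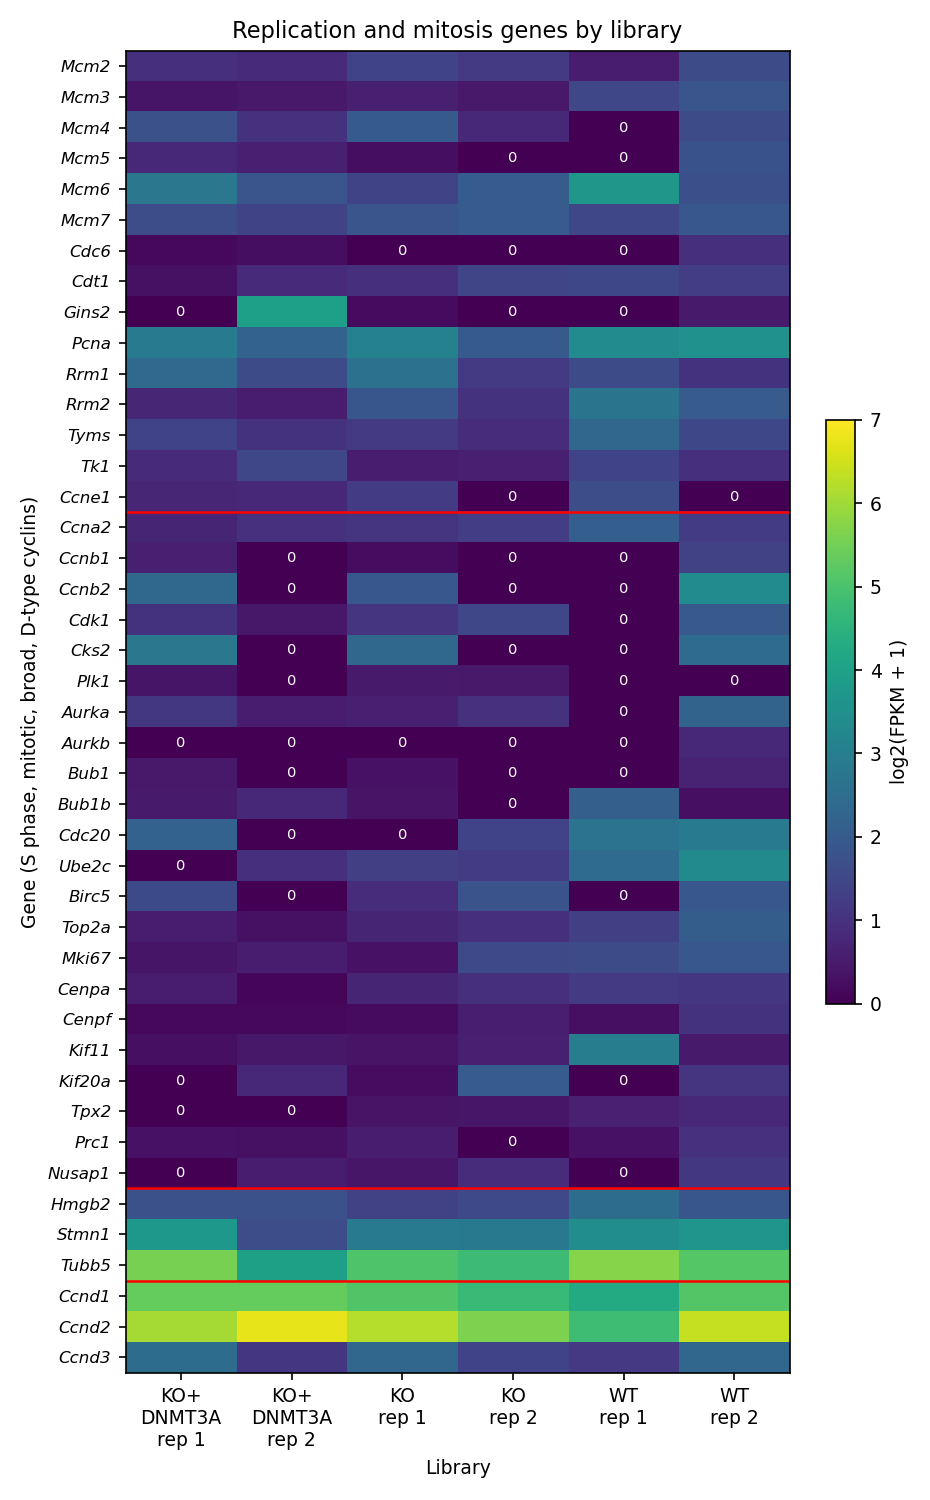
Level of each of the 43 genes (rows, grouped by red lines into S phase, mitotic, broad and D-type cyclin genes) in each library (columns), as log2(FPKM + 1) by colour, with a 0 written where a gene was listed at 0. WT replicate 1 has 11 mitotic genes at 0 and KO+DNMT3A replicate 2 has 9, while the D-type cyclins Ccnd1 and Ccnd2 are above 0 and bright in every library.

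Levels set the members apart before any comparison. Averaged over the 6 libraries, the S phase genes lay between 0.209 and 6.709 FPKM with a median of 1.494 FPKM, and the mitotic genes between 0.118 and 2.92 FPKM with a median of 0.997 FPKM. Of the S phase genes 10 of 15 were above 0 in all 6 libraries, against 6 of 22 mitotic genes. The D-type cyclins Ccnd2 and Ccnd1 averaged 67.3 and 31.6 FPKM, and the tubulin gene Tubb5 averaged 34.6 FPKM. Differences of level between genes are approximate here. For 32 members the values fitted a length equal to the sum of all distinct annotated exons, which exceeds any 1 transcript of a gene with many. For the other 11 they did not, and the length is uncertain.

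Summed over the 15 S phase genes, the level was 27.4 and 32.2 FPKM in KO+DNMT3A islets, 29.0 and 16.9 FPKM in KO islets, and 42.5 and 34.3 FPKM in WT. Both WT libraries were the highest, although KO+DNMT3A replicate 2 came close to WT replicate 2. Gins2 alone gave 14.5 FPKM of the sum in KO+DNMT3A replicate 2. Without the top gene of each library the S phase sums were 20.8 and 17.7 FPKM in KO+DNMT3A islets, 21.7 and 13.8 FPKM in KO islets, and 30.6 and 23.8 FPKM in WT. The 22 mitotic genes summed to 22.2 and 6.16 FPKM in KO+DNMT3A islets, 16.4 and 19.2 FPKM in KO islets, and 29.0 and 55.4 FPKM in WT. Here too both WT libraries were above the other 4, and WT replicate 2 was far above WT replicate 1. WT replicate 2 held the highest value of 15 of the 22 mitotic genes and of 5 of the 15 S phase genes, and KO+DNMT3A replicate 2 that of 0 and 2. The ratio of the mitotic to the S phase sum was 0.81 and 0.191 in KO+DNMT3A, 0.564 and 1.137 in KO, and 0.683 and 1.614 in WT. The ratios of the 3 groups overlapped.

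**Figure D2:**
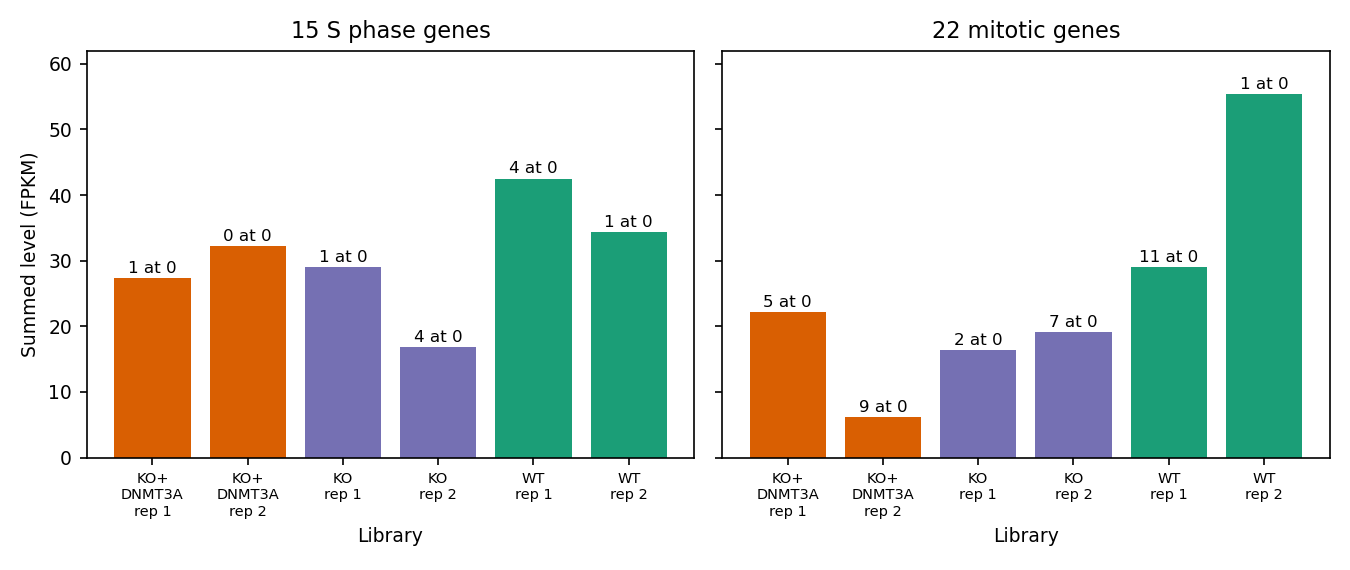
Summed FPKM of the 15 S phase genes (left) and the 22 mitotic genes (right) in each library; bars start at 0, colours mark the group and the label over a bar gives how many of the genes were listed at 0. The mitotic sums run between 6.16 FPKM in KO+DNMT3A replicate 2 and 55.4 FPKM in WT replicate 2, and the S phase sums between 16.9 and 42.5 FPKM.

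Zeros were read against depth. Of the mitotic genes, 5 and 9 of 22 were listed at 0 in KO+DNMT3A, 2 and 7 in KO, and 11 and 1 in WT. WT replicate 1 was the shallowest library. Of its 11 mitotic zeros, 3 would have been worth less than 1 count at the level of WT replicate 2, 8 at least 1 count and 4 at least 3. KO+DNMT3A replicate 2 was deeper than WT replicate 2, and yet 0 of its mitotic genes reached 1 FPKM, against 6 in KO+DNMT3A replicate 1, 5 and 7 in KO, and 8 and 16 in WT. Of the S phase genes, 1 and 0 of 15 were listed at 0 in KO+DNMT3A, 1 and 4 in KO, and 4 and 1 in WT. Scaled to the implied depth as CPM, the mitotic genes came to 71.3 and 40.3 in KO+DNMT3A, 68.7 and 123 in KO, and 172 and 257 in WT. In the same unit the S phase genes came to 178 and 184 in KO+DNMT3A, 183 and 105 in KO, and 245 and 196 in WT.

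Among the licensing genes, Mcm3, a helicase subunit (ENSMUSG00000041859, chromosome 1, 20802968 to 20820312, GRCm38), was 0.31 and 0.4 FPKM in KO+DNMT3A islets, 0.52 and 0.38 FPKM in KO islets, and 1.83 and 2.6 FPKM in WT islets. Both WT libraries lay above all others, and the other 4 were close together. Only the 2 WT libraries reached 1 FPKM, so Mcm3 passed the filter for testing through the group where it was high. The implied counts of Mcm3 were few: 4 and 3 in KO+DNMT3A, 5 and 2 in KO, and 3 and 17 in WT. Its log2 fold change was -1.14 (SE 0.52, limma adjusted p = 1, unadjusted p = 0.0606) for KO against WT and -1.24 (SE 0.52, limma adjusted p = 0.997, unadjusted p = 0.0452) for KO+DNMT3A against WT. Mcm6, another subunit, was 5.91 and 2.62 FPKM in KO+DNMT3A islets, 1.69 and 3.08 FPKM in KO islets, and 11.9 and 2.3 FPKM in WT islets. It was highest in the shallow WT replicate 1, where the value rested on 17 counts, and the groups overlapped. Mcm7, whose exons overlap those of Ap4m1 and Cops6 on the opposite strand, was 2.15 and 1.72 FPKM in KO+DNMT3A islets, 2.59 and 3.02 FPKM in KO islets, and 1.81 and 2.73 FPKM in WT islets, a narrow range in which KO lay above KO+DNMT3A and overlapped WT. Mcm2, Mcm4 and Mcm5 complete the ring, and ran from 0.46 to 2.07 FPKM, 0 to 2.93 FPKM and 0 to 2.4 FPKM; Mcm4 was at 0 in 1 library and Mcm5 in 2.

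The loaders were scarce. Cdc6 was at 0 in 3 libraries and did not exceed 0.96 FPKM. Cdt1, which brings the helicase to origins, was 0.24 and 0.82 FPKM in KO+DNMT3A islets, 0.96 and 1.76 FPKM in KO islets, and 1.87 and 1.41 FPKM in WT islets. The KO+DNMT3A libraries were below both KO libraries and below both WT libraries, with a log2 fold change against KO of -0.63 (SE 0.54, limma adjusted p = 1, unadjusted p = 0.274). Gins2, a subunit of the Gins complex, was 0 and 14.5 FPKM in KO+DNMT3A islets, 0.15 and 0 FPKM in KO islets, and 0 and 0.43 FPKM in WT islets. A single library, KO+DNMT3A replicate 2, held nearly all of its signal, on 78 implied counts, while its partner library was at 0. The exons of Gins2 (ENSMUSG00000031821) overlap those of Gse1 on the opposite strand, and the protocol describes no step that keeps strand. Gse1 was 9.55 and 14.3 FPKM in KO+DNMT3A islets, 9.10 and 4.94 FPKM in KO islets, and 3.07 and 13.0 FPKM in WT. The part of Gse1 reads in the Gins2 values was not tested.

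Of the fork and nucleotide genes, all 5 were above 0 in all 6 libraries. Pcna, the sliding clamp, was 6.53 and 3.57 FPKM in KO+DNMT3A islets, 7.39 and 2.92 FPKM in KO islets, and 9.31 and 10.5 FPKM in WT islets. Both WT libraries were above the other 4, and the KO+DNMT3A values lay within the KO range; 2 annotated pseudogenes carry the name of Pcna and may share its reads. Its log2 fold change was -0.93 (SE 0.59, limma adjusted p = 1, unadjusted p = 0.158) for KO against WT and -0.89 (SE 0.59, limma adjusted p = 0.997, unadjusted p = 0.171) for KO+DNMT3A against WT. Rrm2, the regulated subunit of ribonucleotide reductase, was 0.7 and 0.48 FPKM in KO+DNMT3A islets, 2.64 and 1.03 FPKM in KO islets, and 5.49 and 3.04 FPKM in WT islets, on implied counts of 5 and 2 in KO+DNMT3A, 14 and 3 in KO, and 5 and 11 in WT. The 3 groups did not overlap: KO+DNMT3A was the lowest and WT the highest. Rrm2 had a log2 fold change of -1.69 (SE 0.57, limma adjusted p = 0.997, unadjusted p = 0.0184) for KO+DNMT3A against WT. The same gene gave -0.78 (SE 0.57, limma adjusted p = 1, unadjusted p = 0.209) for KO+DNMT3A against KO, and -0.91 (SE 0.57, limma adjusted p = 1, unadjusted p = 0.148) for KO against WT. Rrm1, the partner subunit, was 4.3 and 2.01 FPKM in KO+DNMT3A islets, 5.26 and 1.28 FPKM in KO islets, and 2.04 and 1.03 FPKM in WT islets, where replicate 1 exceeded replicate 2 in each group and all groups overlapped. Thymidylate synthase, Tyms, ran from 0.86 to 3.92 FPKM, with both WT libraries highest. Thymidine kinase, Tk1, was 0.78 and 1.82 FPKM in KO+DNMT3A islets, 0.47 and 0.52 FPKM in KO islets, and 1.66 and 0.97 FPKM in WT islets. KO was the lowest group, and KO+DNMT3A against KO gave a log2 fold change of 0.58 (SE 0.54, limma adjusted p = 1, unadjusted p = 0.318); Tk1 exons overlap Afmid on the opposite strand. Ccne1, the cyclin of S phase entry, ran from 0 to 2.17 FPKM and was at 0 in KO replicate 2 and WT replicate 2.

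**Figure D3:**
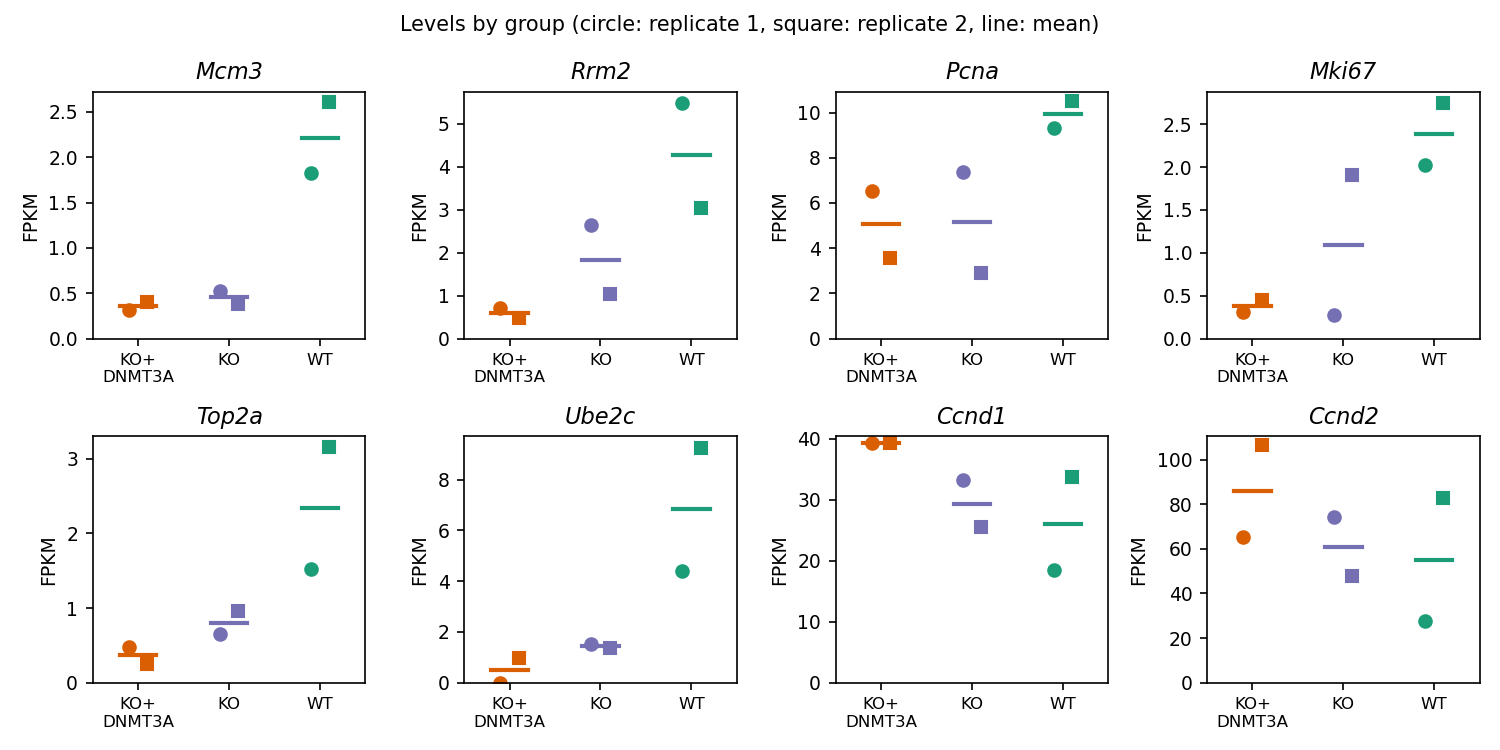
FPKM of Mcm3, Rrm2, Pcna, Mki67, Top2a, Ube2c, Ccnd1 and Ccnd2 in each group, with circles for replicate 1, squares for replicate 2 and a line at the mean of 2; each panel starts at 0 and has its own scale. For the first 6 genes both WT points lie above all KO+DNMT3A and KO points, whereas the WT points of Ccnd1 and Ccnd2 span the KO points.

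Mitotic genes were sparser, and the sparsest were kinase genes. Cdk1, the kinase of mitotic entry, was 1.04 and 0.36 FPKM in KO+DNMT3A islets, 1.12 and 1.79 FPKM in KO islets, and 0 and 2.87 FPKM in WT islets. Only WT replicate 1 was at 0, WT replicate 2 was the highest, and KO+DNMT3A was below KO. Ccnb2, a cyclin B, was 4.05 and 0 FPKM in KO+DNMT3A islets, 2.73 and 0 FPKM in KO islets, and 0 and 9.33 FPKM in WT islets, and Cks2, a small Cdk1 subunit, was 6.02 and 0 FPKM in KO+DNMT3A islets, 4.05 and 0 FPKM in KO islets, and 0 and 4.45 FPKM in WT islets. Both were at 0 in the same 3 libraries, 1 of each group, and Cks2 never exceeded 8 implied counts. Ccna2, cyclin A2, ran from 0.66 to 3.26 FPKM and was above 0 everywhere. Ccnb1, cyclin B1, ran from 0 to 1.53 FPKM with 3 libraries at 0. Among the mitotic kinases, Plk1 did not exceed 0.43 FPKM and was at 0 in 3 libraries, Aurkb was above 0 only in WT replicate 2 at 0.71 FPKM, and Aurka ran from 0 to 3.71 FPKM with its highest value there too.

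Of the checkpoint and anaphase genes, Ube2c had the smallest p of all members against WT. Ube2c (ENSMUSG00000001403, chromosome 2) was 0 and 0.97 FPKM in KO+DNMT3A islets, 1.51 and 1.38 FPKM in KO islets, and 4.41 and 9.24 FPKM in WT islets, on implied counts of 0 and 3 in KO+DNMT3A, 6 and 3 in KO, and 3 and 25 in WT. Again the 3 groups did not overlap, with KO+DNMT3A lowest and WT highest. Its log2 fold change was -2.41 (SE 0.60, limma adjusted p = 0.997, unadjusted p = 0.00418) for KO+DNMT3A against WT. The value for KO against WT was -1.60 (SE 0.60, limma adjusted p = 1, unadjusted p = 0.0291), and that for KO+DNMT3A against KO was -0.80 (SE 0.60, limma adjusted p = 1, unadjusted p = 0.219). Cdc20, which activates the anaphase-promoting complex, was 3.62 and 0 FPKM in KO+DNMT3A islets, 0 and 1.67 FPKM in KO islets, and 5.33 and 6.25 FPKM in WT islets. Its implied counts were 16 and 0 in KO+DNMT3A, 0 and 3 in KO, and 3 and 14 in WT. Each of KO+DNMT3A and KO had 1 library at 0, and both WT libraries were above the rest, with a log2 fold change for KO against WT of -2.05 (SE 0.83, limma adjusted p = 1, unadjusted p = 0.04). Its exons overlap Elovl1 on the opposite strand, as those of Ube2c overlap Tnnc2, which was at 0 in all 6 libraries. The checkpoint kinase genes Bub1 and Bub1b ran from 0 to 0.59 FPKM and 0 to 3.38 FPKM. The top value of Bub1b was that of WT replicate 1, on 4 implied counts, as many as in each KO+DNMT3A library. Birc5, survivin, ran from 0 to 2.71 FPKM with KO+DNMT3A replicate 2 and WT replicate 1 at 0.

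Of the chromosome and spindle genes, Mki67, the standard marker of dividing cells, was 0.31 and 0.44 FPKM in KO+DNMT3A islets, 0.28 and 1.91 FPKM in KO islets, and 2.03 and 2.75 FPKM in WT islets. KO replicate 2 lay just under the WT range, while KO replicate 1 lay with the KO+DNMT3A libraries. The implied counts of Mki67 were 6 and 5 in KO+DNMT3A, 4 and 15 in KO, and 5 and 27 in WT. The lower WT value thus rested on 5 counts in the shallow WT replicate 1, against 15 in KO replicate 2. Its log2 fold change was -1.29 (SE 0.59, limma adjusted p = 0.997, unadjusted p = 0.0607) for KO+DNMT3A against WT and -0.81 (SE 0.59, limma adjusted p = 1, unadjusted p = 0.21) for KO against WT. Top2a, the topoisomerase that untangles chromosomes, was 0.49 and 0.25 FPKM in KO+DNMT3A islets, 0.65 and 0.95 FPKM in KO islets, and 1.52 and 3.16 FPKM in WT islets, on implied counts of 10 and 3 in KO+DNMT3A, 10 and 8 in KO, and 4 and 33 in WT. The groups did not overlap in any of the 3 comparisons, and KO+DNMT3A was lowest. Only the 2 WT libraries reached 1 FPKM, so Top2a too passed the filter for testing through the group where it was high. Top2a had a log2 fold change of -1.25 (SE 0.54, limma adjusted p = 0.997, unadjusted p = 0.0512) for KO+DNMT3A against WT. The centromere genes Cenpa and Cenpf ran from 0.09 to 1.26 FPKM and 0.1 to 1.03 FPKM. Of the spindle genes, Kif11 reached 6.78 FPKM in WT replicate 1, on 12 implied counts, and was 0.22 to 0.53 FPKM in the other 5 libraries. Kif20a ran from 0 to 3.04 FPKM with its top in KO replicate 2, Tpx2 from 0 to 0.71 FPKM with both KO+DNMT3A libraries at 0, Prc1 from 0 to 1.0 FPKM, and Nusap1 from 0 to 1.18 FPKM.

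The 3 genes of broader use were above 0 in all libraries. Stmn1, which destabilises microtubules, was 12.4 and 2.13 FPKM in KO+DNMT3A islets, 6.2 and 6.1 FPKM in KO islets, and 9.73 and 11.5 FPKM in WT islets. Both extremes lay in KO+DNMT3A. Tubb5, a beta-tubulin, was 46.2 and 14.9 FPKM in KO+DNMT3A islets, 32.6 and 27.0 FPKM in KO islets, and 52.4 and 34.6 FPKM in WT islets, with the same pattern of a high replicate 1 and a low replicate 2 in KO+DNMT3A. Hmgb2, a chromatin protein of dividing cells, was 2.32 and 2.33 FPKM in KO+DNMT3A islets, 1.56 and 1.9 FPKM in KO islets, and 4.55 and 2.67 FPKM in WT islets. Both WT libraries were highest and KO lowest, on few implied counts: 12 and 7 in KO+DNMT3A, 6 and 4 in KO, and 3 and 7 in WT.

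The D-type cyclins were abundant, as the levels above show. Ccnd2, the D-type cyclin known to be needed for beta cell growth in mice, was 65.1 and 106 FPKM in KO+DNMT3A islets, 74.2 and 47.8 FPKM in KO islets, and 27.4 and 83.0 FPKM in WT islets. The lowest library was WT replicate 1, and the groups overlapped. Ccnd1 was 39.3 and 39.3 FPKM in KO+DNMT3A islets, 33.1 and 25.6 FPKM in KO islets, and 18.4 and 33.7 FPKM in WT islets. Both KO+DNMT3A libraries were nearly equal and above the other 4, with a log2 fold change of 0.64 (SE 0.58, limma adjusted p = 0.997, unadjusted p = 0.303) against WT and 0.42 (SE 0.58, limma adjusted p = 1, unadjusted p = 0.486) against KO. Ccnd3 was 4.54 and 1.15 FPKM in KO+DNMT3A islets, 3.96 and 1.65 FPKM in KO islets, and 1.26 and 3.98 FPKM in WT islets, with replicates within a group farther apart than the groups. Under quantile normalization or median scaling the values of Ccnd1 and Ccnd2 stayed above 0 in all 3 comparisons, while that of Ccnd3 against WT was -0.01 in KO and -0.31 in KO+DNMT3A under quantile normalization, and -0.16 in KO+DNMT3A under median scaling. The exons of Ccnd1 and Ccnd3 overlap an opposite-strand gene each.

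No gene of the whole table passed in any comparison. Of 13233 genes tested with limma, 0 had an adjusted p under 0.05 (a background of 0%), and the smallest adjusted p was 1 for KO against WT, 1 for KO+DNMT3A against KO and 0.997 for KO+DNMT3A against WT. Of the 43 members 30 passed the filter on low values, 12 of the 15 S phase and 12 of the 22 mitotic genes among them. The counts below therefore cover all members, tested or not, as a description.

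For the libraries labelled KO against those labelled WT, between which Rptor overlapped, 11 of 15 S phase genes and 17 of 22 mitotic genes had a lower mean in KO, where 42.1% of all genes above 0 did. Their median log2 fold changes were -0.49 and -0.35, and that of all genes above 0 was 0.01. Both libraries of KO lay below both of WT for 5 S phase and 6 mitotic genes, against 8.23% of all genes above 0, and above them for 0 and 1 genes, against 9.36%. Tpx2 was among the lower mitotic genes, on 1 implied count in the shallow WT replicate 1 and 3 and 2 in KO. An unadjusted p under 0.05 was reached by Ube2c and Cdc20, both lower, against 1.81% of all genes tested. The mitotic median rested on WT replicate 2: without it the KO mean was lower for 10 mitotic genes and higher for 11, and the median was 0.05, where 32.3% of all genes above 0 were lower and their median was 0.18. Leaving out KO replicate 2 and WT replicate 1, which had little insulin RNA, compares KO replicate 1 with WT replicate 2, 1 library each. The value was then lower in KO for 20 of 22 mitotic and 12 of 15 S phase genes, against 46.1% of all genes above 0. These counts again rest on WT replicate 2, which held the highest value of 15 of the 22 mitotic genes.

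For KO+DNMT3A against KO, which asks what added Dnmt3a does, the S phase and mitotic genes were counted apart. A lower mean in KO+DNMT3A was found for 6 of 15 S phase genes and 13 of 22 mitotic genes, against 33.8% of all genes above 0. The median log2 fold change was 0.08 for the S phase genes and -0.27 for the mitotic genes, while that of all genes above 0 was 0.15. The groups did not overlap, with KO+DNMT3A lower, for 4 S phase genes (Mcm2, Mcm7, Cdt1 and Rrm2) and 8 mitotic genes (Ccna2, Cdk1, Plk1, Ube2c, Top2a, Cenpa, Cenpf and Tpx2), against 5.72% of all genes above 0. Of these, Plk1 had only 2 and 0 implied counts in KO+DNMT3A and 2 and 1 in KO. The groups did not overlap, with KO+DNMT3A higher, for Mcm5, Cdc6, Tk1 and Bub1b, against 15.1%. No member had an unadjusted p under 0.05, which 1.11% of all genes tested had. Over the genes tested the median was 0.19, and -0.01 after median scaling, where the S phase median was -0.12 with 11 of 15 genes lower and the mitotic median -0.48 with 18 of 22 lower. Without KO+DNMT3A replicate 1, 19 mitotic genes were lower and 2 higher, against 41.1% of all genes above 0 lower. The direction of the S phase median depended on scaling and on single libraries: the median was 0.32 without KO replicate 1, -0.29 without KO replicate 2 (9 of 15 lower) and -0.05 without KO+DNMT3A replicate 1.

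For KO+DNMT3A against WT, the distance of the DNMT3A-expressing islets from wild type, 12 of 15 S phase genes and 20 of 22 mitotic genes had a lower mean in KO+DNMT3A, against 32.8% of all genes above 0. The medians were -0.18 and -0.45, against 0.19 for all genes above 0. Both KO+DNMT3A libraries lay below both WT libraries for 5 S phase genes (Mcm3, Cdt1, Pcna, Rrm2 and Tyms) and 9 mitotic genes (Ccna2, Cdc20, Ube2c, Top2a, Mki67, Cenpa, Cenpf, Kif11 and Tpx2), against 6.4% of all genes above 0. They lay above for 0 of either set, against 17.5%. Some of the separations turn on depth. Cenpf had 1 implied count in the shallow WT replicate 1 and 4 and 2 in KO+DNMT3A, and Tpx2 had 1 in WT replicate 1 and 0 and 0 in KO+DNMT3A. Kif11 had 3 in WT replicate 2 and 3 and 3 in KO+DNMT3A. An unadjusted p under 0.05 was reached by Ube2c, Rrm2 and Mcm3, all lower, against 2.86% of all genes tested. Mcm3 passed the filter on low values only through the WT libraries, where it was high, so its p is no support for a lower level. Without WT replicate 2 the mitotic median was -0.01, with 11 genes lower and 10 higher, where 28.0% of all genes above 0 were lower and their median was 0.33. Without WT replicate 1 the mitotic median was -0.87, with 20 of 22 mitotic and 10 of 15 S phase genes lower, against 42.4% of all genes above 0. This comparison shares its libraries with the other two, so the 3 sets of values are not independent.

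**Figure D4:**
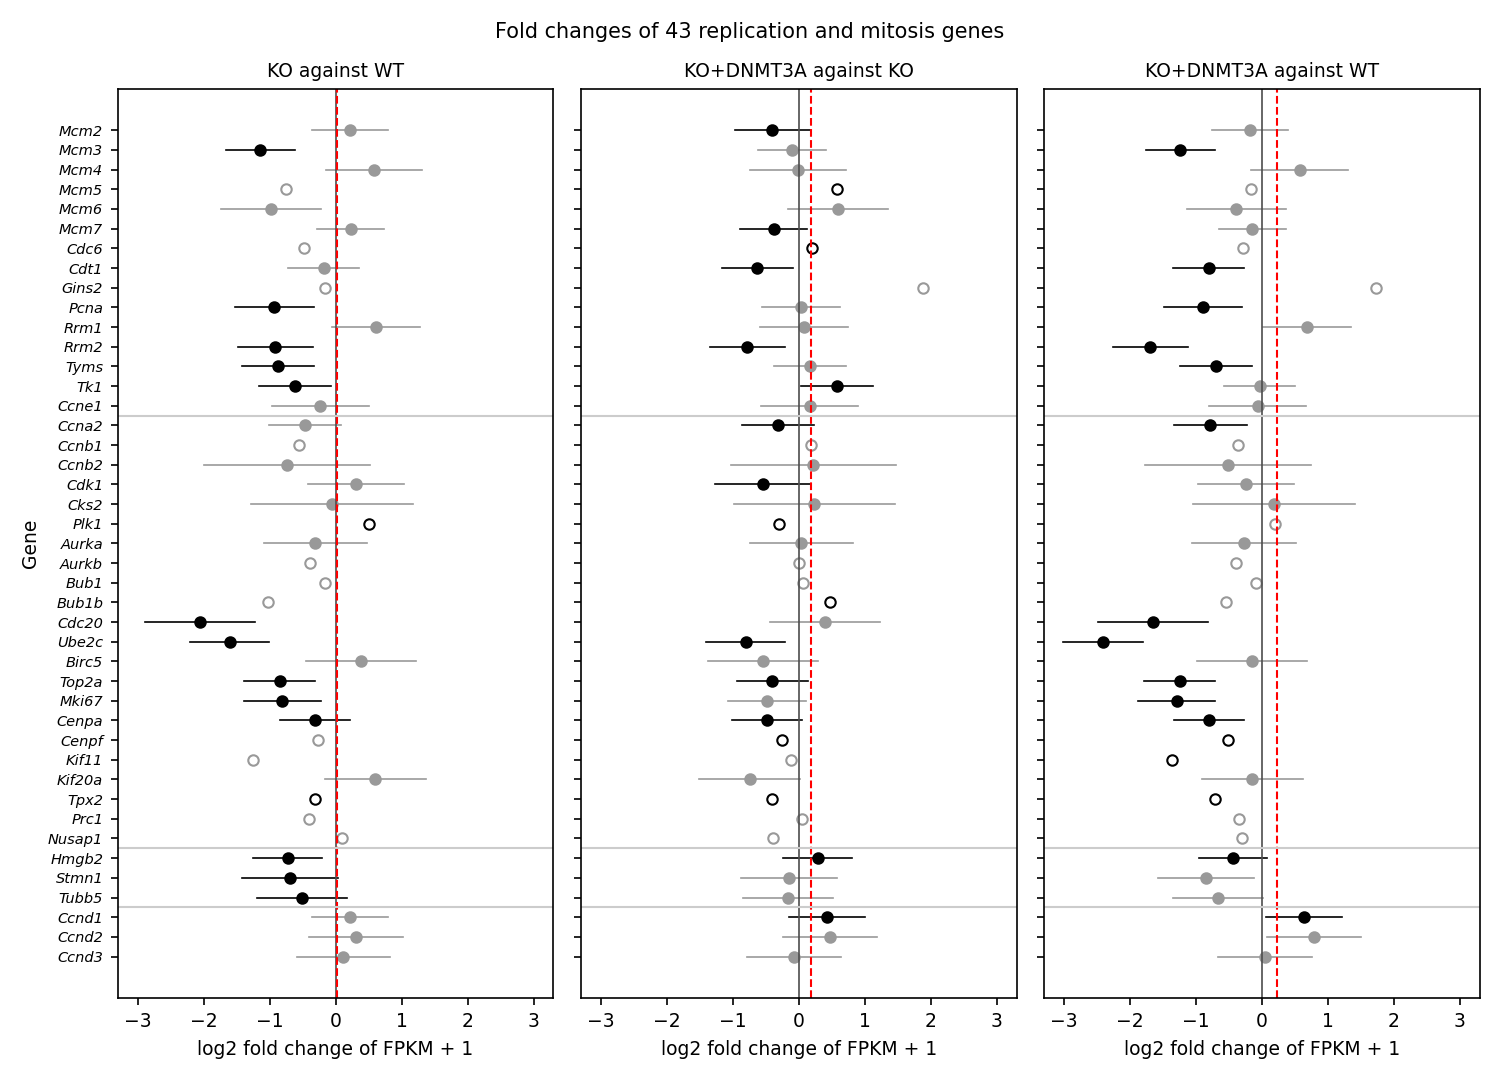
Log2 fold change of FPKM + 1 for each of the 43 genes in the 3 comparisons; filled points passed the filter on low values and carry a line of 1 SE on each side, open points did not pass it, black marks groups that do not overlap and the red dashed line is the median of all 13233 genes tested. Most mitotic points lie left of 0 in both comparisons with WT, Cdc20 lies farthest left for KO against WT and Ube2c for KO+DNMT3A against WT.

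The other genes of these pathways were read from 4 lists that share no gene with the 43. Of 41 further replication genes, 22 had a lower and 17 a higher mean in KO than in WT, and 21 a lower and 19 a higher mean in KO+DNMT3A than in WT, with medians of -0.05 and -0.08. Both KO+DNMT3A libraries lay below both WT libraries for 6 of them and above for 7, against 6.4% and 17.5% of all genes above 0. Gins3 was 2.16 and 1.11 FPKM in KO+DNMT3A islets, 2.62 and 2.12 FPKM in KO islets, and 6.78 and 3.83 FPKM in WT islets, with both WT libraries highest, whereas the primase gene Prim1 was 3.31 and 1.08 FPKM in KO+DNMT3A islets, 2.41 and 1.98 FPKM in KO islets, and 0 and 0.88 FPKM in WT islets, with both WT libraries lowest. Of 48 further mitotic genes, 32 had a lower mean in KO than in WT, with a median of -0.20, and 29 a lower mean in KO+DNMT3A than in WT, with a median of -0.23. Both KO libraries lay below both WT libraries for 3 of the 48 and above for 2, against 8.23% and 9.36% of all genes above 0. Both KO+DNMT3A libraries lay below both WT libraries for 7 of the 48 and above for 3, against 6.4% and 17.5%. WT replicate 2 held the highest value of 20 of the 48, while 33 were at 0 in WT replicate 1. Ccnf, cyclin F, was 1.34 and 1.44 FPKM in KO+DNMT3A islets, 0.23 and 0.83 FPKM in KO islets, and 3.96 and 1.66 FPKM in WT islets, and the condensin gene Ncapd2 was 1.64 and 0.9 FPKM in KO+DNMT3A islets, 0.31 and 0.43 FPKM in KO islets, and 3.21 and 1.27 FPKM in WT islets; in both genes KO was below WT without overlap. Lmnb1, lamin B1, ran opposite, at 8.45 and 2.51 FPKM in KO+DNMT3A islets, 2.63 and 2.8 FPKM in KO islets, and 0 and 1.28 FPKM in WT islets, with a log2 fold change of 1.93 (SE 0.68, limma adjusted p = 0.997, unadjusted p = 0.0231) for KO+DNMT3A against WT.

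Among 27 genes of the Cdk, E2F and Rb machinery the medians were 0 for KO against WT, 0 for KO+DNMT3A against KO and 0.19 for KO+DNMT3A against WT. Tfdp1, the partner of E2F proteins, was 10.4 and 6.32 FPKM in KO+DNMT3A islets, 3.71 and 1.51 FPKM in KO islets, and 7.21 and 5.44 FPKM in WT islets. KO was the lowest group and did not overlap the other groups, with a log2 fold change of 1.41 (SE 0.57, limma adjusted p = 1, unadjusted p = 0.0391) for KO+DNMT3A against KO. Among 18 genes that restrain the cycle the medians were -0.06 for KO against WT, 0.16 for KO+DNMT3A against KO and 0.30 for KO+DNMT3A against WT. Wee1, the kinase that holds Cdk1 inactive, was listed at 0 in all 4 KO and WT libraries and was 1.61 and 3.23 FPKM in KO+DNMT3A. Its unadjusted p was 0.0151 against each group, with a limma adjusted p of 1 against KO and 0.997 against WT. Wee1 passed the filter on low values only through the KO+DNMT3A libraries, where it was high, so these p-values are no support for a higher level. Gadd45g, a growth arrest gene, was 111 and 155 FPKM in KO+DNMT3A islets, 64.5 and 47.0 FPKM in KO islets, and 57.0 and 111 FPKM in WT islets. No gene of the 4 lists passed at an adjusted p under 0.05; unadjusted, Tfdp1 and Wee1 were under 0.05 against KO, and Wee1 and Lmnb1 against WT, all higher in KO+DNMT3A, beside 1.11% and 2.86% of all genes tested. The lists had 27 (replication), 25 (mitosis), 21 (Cdk, E2F and Rb) and 16 (restraint) genes tested.

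Markers of other islet cells also differed between libraries. The 16 macrophage markers summed to 292 and 181 FPKM in KO+DNMT3A islets, 571 and 359 FPKM in KO islets, and 681 and 552 FPKM in WT, and 0 to 2 of them were at 0 per library. By group mean, Mki67, Top2a, Rrm2 and Ube2c had the same order, with WT highest and KO+DNMT3A lowest. Other members did not: in Cdc20, Mcm6 and Tk1 the KO mean was the lowest. Of the 16 macrophage markers, 13 had a lower mean in KO+DNMT3A than in KO, and 14 a lower mean in KO than in WT. The 12 stellate cell and fibroblast markers summed to 438 and 207 FPKM in KO+DNMT3A islets, 425 and 460 FPKM in KO islets, and 1188 and 315 FPKM in WT. The 10 duct markers summed to 1646 and 420 FPKM in KO+DNMT3A islets, 570 and 338 FPKM in KO islets, and 2878 and 459 FPKM in WT. In both lists WT replicate 1 was the highest library. The 10 endothelial markers summed to 32.0 and 22.8 FPKM in KO+DNMT3A islets, 53.0 and 29.7 FPKM in KO islets, and 52.2 and 20.9 FPKM in WT, and the 8 Schwann cell markers to 33.6 and 16.5 FPKM in KO+DNMT3A islets, 22.6 and 92.9 FPKM in KO islets, and 22.5 and 37.6 FPKM in WT. The 9 markers of other endocrine cells summed to 17600 and 31279 FPKM in KO+DNMT3A islets, 28422 and 16402 FPKM in KO islets, and 3415 and 12135 FPKM in WT. Of these 9, 5 were higher in KO than in WT without overlap, and 4 higher in KO+DNMT3A than in WT, beside 9.36% and 17.5% of all genes above 0. Lymphocyte markers summed to at most 2.17 FPKM, acinar markers to at most 13.7 FPKM, and all 6 erythroid markers were at 0 in every library. The part of these cells in the values of the replication and mitosis genes was not tested.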

How the data were processed

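Poly-A RNA of isolated mouse islets was sequenced in 6 libraries, 2 each of KO+DNMT3A, KO and WT, after an RNeasy Micro extraction and a TruSeq preparation, per the labels' protocols. As deposited by the authors, each gene has an FPKM value, per the file headers. The tools HISAT2 2.0.4, StringTie 1.3.0 and edgeR and the genome build mm10 are named, per the submitters' processing notes. No role or order is given for the tools, and the counting step is not given in the sources used here. Symbols and positions come from GENCODE M21 (GRCm38), where 401 of 34745 identifiers had no symbol.

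Depth was inferred from genes with 1 annotated transcript, of whose values up to 20 counts 84.3% to 91.6% were whole multiples of 1 count within 0.01. For genes with several transcripts, the summed length of all distinct exons gave whole counts for 71.6% to 75.7% of values, and the longest transcript for 4.6% to 5.0%. The FPKM of genes with many exon variants can therefore understate their level against other genes. For 32 members the counts came from annotated exons, and for 11 from the nearest length that made all values whole. The implied counts of all genes sum to more than the implied depth (315727 against 244735 in WT replicate 1). Exons of 15 members overlap another gene, 11 of them a protein-coding gene on the opposite strand, and 5 members have named pseudogenes (Pcna, Tyms, Ccnb1, Ccnb2 and Ccnd3), so their reads may be shared.

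The 13233 genes that reached 1 FPKM in 2 or more libraries entered 1 limma 3.58.1 fit (R 4.3.3) of log2(FPKM + 1) over all 6 libraries, with a trended, robust empirical Bayes step, two-sided tests and Benjamini-Hochberg adjustment at 0.05. Fold changes refer to values after the pseudocount of 1 and understate changes of low genes. The script was tested on simulated data. Lists are described by counts and medians. Members and lists were chosen with earlier results of these data known. Values in all libraries are given for members with a mean of at least 2 FPKM, for Mki67, Top2a, Cdk1, Mcm3, Rrm2 and Pcna, and for the 4 members per comparison with the smallest p whose groups do not overlap. Of the pathway lists at most 4 genes with the smallest p were named. The folds of Pcna, Mki67 and Ccnd1 were added after their values were seen. Gse1, Elovl1, Tnnc2 and Kif11's single high library were singled out after their values were seen. The alternatives changed the pseudocount (0.1), the filter (none, or 5 FPKM) and the scaling (quantile, median), and also tried an untrended fit, rescaling to other genes, a fit of the groups compared, a replicate block and each library left out. A fit without both insulin-poor libraries was also made. Added after seeing the data were voom on implied counts, a crossed block and counts of members without single libraries. Python 3.11.15, numpy 2.4.6, pandas 2.3.3 and matplotlib 3.10.9 were used.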

Additional observations from a re-analysis of the deposited data

How the results depend on the processing

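No gene of the table was called in any of the 3 comparisons in any of the 52 counts made over the alternative settings and comparisons, voom on implied counts included, and the count stayed at 0 with every library left out in turn. The log2 fold changes of the genes given with a test kept their direction in all 337 alternative values. A gene had no value in a setting where it failed the filter on low values. Mcm3 and Top2a thus had 13 values per comparison, against 17 for Pcna. They had none at the filter of 5 FPKM, without WT replicate 1 or 2, or without both insulin-poor libraries. Wee1 had none at that filter or without either KO+DNMT3A library. Those settings could not test the direction of these genes. With 1 library left out, the log2 fold change ran from -1.40 (without KO replicate 2) to -0.21 (without KO replicate 1) for Mki67, from -1.48 (without KO replicate 1) to -0.38 (without KO replicate 2) for Pcna, and from -1.33 (without KO replicate 1) to -0.49 (without KO replicate 2) for Rrm2, all in KO against WT. For KO+DNMT3A against WT, that of Ccnd1 ran from 0.22 (without WT replicate 1) to 1.05 (without WT replicate 2), that of Lmnb1 from 1.22 to 2.65 (without KO+DNMT3A replicate 1 or 2), and that of Pcna from -1.26 to -0.54 (the same libraries). For KO+DNMT3A against KO, it ran from -1.29 to -0.32 for Ube2c and from -0.91 to -0.36 for Cdt1 (without KO+DNMT3A replicate 2 or 1), and, without KO replicate 2 or 1, from -1.20 to -0.36 for Rrm2, from 0.24 to 0.60 for Ccnd1 and from 0.96 to 1.87 for Tfdp1. Cdc20 in KO against WT ran from -2.76 to -1.34 (without KO replicate 2 or 1), and Tk1 in KO+DNMT3A against KO reached 0.91 without KO+DNMT3A replicate 1. With a pseudocount of 0.1 they were -1.07 (S phase) and -0.74 (mitotic) for KO against WT, and -0.73 (mitotic) for KO+DNMT3A against KO. Leaving out KO replicate 2 and WT replicate 1 together left 1 library each of KO and WT. The S phase medians were then -0.30 for KO against WT, -0.29 for KO+DNMT3A against KO and -0.35 for KO+DNMT3A against WT. The mitotic medians were -0.79 for KO against WT and -0.87 for KO+DNMT3A against WT. Under quantile normalization the S phase medians were -0.12 for KO+DNMT3A against KO and -0.49 for KO+DNMT3A against WT, and under median scaling -0.12 and -0.38. With each library left out in turn, the S phase median ran from -0.59 to -0.30 for KO against WT, -0.29 to 0.32 for KO+DNMT3A against KO and -0.35 to -0.18 for KO+DNMT3A against WT. The mitotic median ran from -0.65 to 0.051 for KO against WT, -0.36 to -0.13 for KO+DNMT3A against KO and -0.87 to -0.008 for KO+DNMT3A against WT; its upper end came without WT replicate 2 in both comparisons with WT. The cause of these shifts was not tested. The labels do not say that replicate numbers pair the libraries, and the deviations of same-numbered libraries correlated at 0.318 between KO+DNMT3A and KO, 0.101 between KO+DNMT3A and WT, and -0.269 between KO and WT. A replicate block left 0 genes called in each comparison, as did a crossed replicate block for KO against WT, added after seeing the data. Depth limits the mitotic genes most: in WT replicate 1 their implied counts came to 42 over 22 genes.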

Other observations

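Several members had a single library far above the other 5 in FPKM, and these libraries were not all of the same group. Gins2 was 14.5 FPKM in KO+DNMT3A replicate 2 and at most 0.43 FPKM elsewhere. Kif11 was 6.78 FPKM in WT replicate 1 and at most 0.53 FPKM elsewhere. Bub1b was 3.38 FPKM in WT replicate 1 and at most 0.74 FPKM elsewhere. That high value rested on 4 implied counts in the shallowest library, and both KO+DNMT3A libraries also had 4. These genes were singled out after their values were seen.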
